A study of Homo sapiens with 6 samples.

Results

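Chemokine ligands are small secreted proteins that direct the movement of leukocytes along concentration gradients, and they are named CXC, CC, CX3C or XC by the spacing of their first cysteines. They act on G protein-coupled receptors of the target cell, whereas atypical receptors take them up without classical signaling. In tumors, some of these ligands recruit T and NK cells and others recruit neutrophils and monocytes, and many are transcribed in response to interferon (IFN) or NF-κB signaling. The ligands were taken here as all genes of the count table with a symbol that starts with CXCL, CCL, CX3CL or XCL followed by a number, which gave 43 of 37887 listed genes.

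RNA-seq was performed on BT-549, a human triple-negative breast cancer cell line, in 3 control and 3 IRF1shRNA libraries. Control cells received 0.1% DMSO, and IRF1shRNA cells received 500 ng/ml doxycycline (DOX) to induce a short hairpin RNA against IRF1, a transcription factor of the IFN response. The titles speak of a control shRNA, while the series describes a single line with a DOX-inducible IRF1 hairpin. No control received DOX, so the effects of the drug, of this one hairpin and of IRF1 loss cannot be told apart. If the titles hold, the groups are also separate lines, and a difference between lines cannot be told apart from these effects.

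Values are given as CPM, each gene's count divided by its library's TMM-scaled total and written in parts per mega-count. The total count per library ranged from 55143808 to 160436234, with IRF1shRNA replicate 2 the least deeply sequenced. VIM, a mesenchymal marker of this line, was at 918 ± 28.6 CPM in control cells (SD, n = 3), CDH1 at 0.676 ± 0.123 CPM and ESR1 at 0.0163 ± 0.0162 CPM. ERBB2 was at 50.8 ± 3.67 CPM, so its transcript was present in this line. IRF1 was at 45.3, 48.1 and 51.5 CPM in the control and 13.8, 14.9 and 14.6 CPM in the IRF1shRNA libraries, with a log2 fold change of −1.74 ± 0.06 (SE) and an edgeR adjusted p of 4.53e-13. All IRF1shRNA libraries were far below all controls, as their labels say.

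Of the 43 ligands, 31 had at least 1 count in any library and 12 had none. At least 3 counts in every library were found for 10 ligands. The filter on low counts left 15 ligands for the test, and no library held more than 14 counts of any of the other 28. CXCL9, an IFN-inducible T cell attractant, was among those not tested, with 0 counts in 5 libraries and 4 counts in IRF1shRNA replicate 1. CCL26 had 0 to 14 counts per library, CCL21 2 to 12, XCL1 0 to 9, CXCL17 0 to 7, CXCL13 0 to 6, CCL3L1 0 to 4 and CCL25 0 to 3. CXCL14, CCL3, CCL17, CCL22, CCL24, CCL28 and XCL2 had at most 2 counts in any library, and CCL11 had 1 count in a single library. CXCL12, the ligand of CXCR4, had 0 counts throughout, as did CCL1, CCL4, CCL4L2, CCL8, CCL13, CCL14, CCL15, CCL16, CCL18, CCL23 and CCL27. The floor of 3 counts corresponds to 0.0182 to 0.0540 CPM, so ligands below these levels were not detectable at this depth. This floor takes counts as independent and is higher if mates of a pair were counted separately. In bulk RNA, fewer cells that express a ligand and less RNA per cell cannot be told apart.

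Among the 15 tested ligands, 7 fell and 4 rose in IRF1shRNA cells (edgeR quasi-likelihood test, adjusted p under 0.05). The ligands that fell were CCL5, CX3CL1, CXCL10, CXCL11, CXCL16, CXCL1 and CXCL8, and those that rose were CCL7, CCL20, CXCL5 and CXCL2. Of all 18851 genes tested, 26.4% fell and 24.1% rose by the same rule. With a change over 2-fold as well, 5 ligands fell and 2 rose, where 4.43% of all genes fell and 3.43% rose. For 11 ligands no IRF1shRNA library reached into the control range (8 lower and 3 higher), beside 56.8% of all genes. The median log2 fold change of the 15 ligands was −0.23, and that of all genes tested was −0.0024.

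These counts include 5 ligands that passed the filter through their higher group alone and therefore had to differ. CXCL10, CXCL11 and CX3CL1 passed through the control libraries, and CCL7 and CCL20 through the IRF1shRNA libraries. Among the other 10 ligands, 4 fell, 2 rose and 4 did not pass the threshold. Past 2-fold, 2 of these 10 fell (CCL5 and CXCL16) and 0 rose. The plot of every library shows both kinds, with the low-abundance ligands near the limit of detection.

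**Figure D1:**
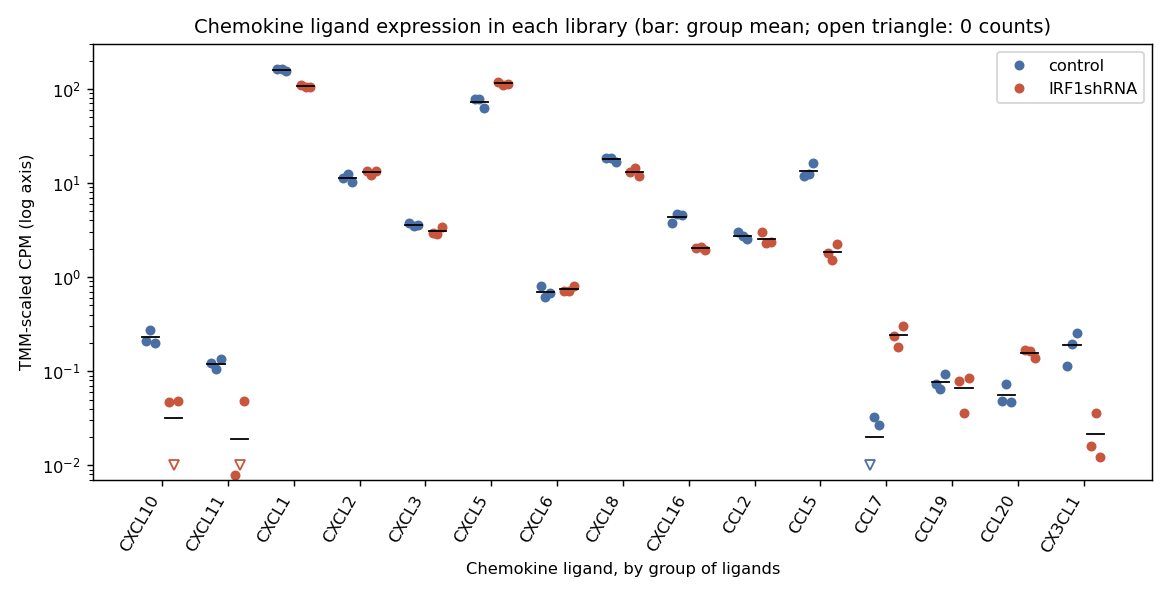
TMM-scaled CPM (log axis) of the 15 tested chemokine ligands in the 3 control (blue) and 3 IRF1shRNA libraries (red), ordered by group of ligands. Points are libraries, bars are group means and open triangles mark libraries with 0 counts, drawn at the bottom of the axis. CXCL1 and CXCL5 were the most abundant ligands, and CCL5 fell from a mean of 13.6 to 1.86 CPM.

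CCL5 (RANTES) attracts T cells, monocytes and eosinophils through CC chemokine receptors. CCL5 was at 11.9, 12.6 and 16.2 CPM in the control libraries and at 1.81, 1.51 and 2.25 CPM in the IRF1shRNA libraries. Every IRF1shRNA library was below every control, and the mean was 13.7% of the control mean. On the log2 scale the transcript fell by 2.82 ± 0.13 (SE), with a 95% interval of −3.11 to −2.54 (edgeR adjusted p 1.67e-11). CCL5 had the smallest adjusted p of the 15 ligands. Its gene lies at chromosome 17, 35871491 to 35880793, on the minus strand (GENCODE release 29, GRCh38), with an antisense gene on the other strand of its introns.

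CXCL10 and CXCL11 attract activated T and NK cells through the receptor CXCR3 and are classical IFN-induced ligands. CXCL10 had 26, 34 and 30 counts in the control libraries and 6, 0 and 8 counts in the IRF1shRNA libraries, or 0.230 ± 0.0415 and 0.0321 ± 0.0278 CPM (SD, n = 3 each). CXCL11 had 15, 13 and 20 counts in control and 1, 0 and 8 counts in IRF1shRNA libraries. Both fell without overlap between the groups, although they were scarce in control cells as well. The log2 fold change was −2.52 ± 0.54 (SE) for CXCL10 and −2.24 ± 0.67 for CXCL11, with edgeR adjusted p-values of 7.22e-04 and 0.00993. The count of 0 in IRF1shRNA replicate 2 allows up to 0.0540 CPM for either gene if counts are independent. The limit is higher if mates of a pair were counted separately. CXCL11 lost the call without IRF1shRNA replicate 1 (−1.82, edgeR adjusted p 0.0629), and its log2 fold change was −4.23 without IRF1shRNA replicate 3. Both genes lie within an intron of ART3 on the opposite strand, which itself held 2 to 12 counts per library.

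CX3CL1 (fractalkine) is anchored in the membrane by a mucin-like stalk and is shed as a chemoattractant for cells with CX3CR1. It had 14, 24 and 38 counts in control and 2 counts in each IRF1shRNA library. The IRF1shRNA mean was 11.4% of control, with a log2 fold change of −3.35 ± 0.63 (SE) and an edgeR adjusted p of 2.41e-04. The 2 counts lie below the floor of 3 counts, so the size of this fall is uncertain. With halved counts CX3CL1 did not pass the filter. CXCL16, the second membrane-anchored chemokine and the ligand of CXCR6, was well detected. It was at 3.75, 4.74 and 4.57 CPM in control and at 2.03, 2.09 and 1.94 CPM in IRF1shRNA libraries. CXCL16 was therefore lower in all IRF1shRNA libraries than in any control. CX3CL1 was as well, but it passed the filter through the control libraries alone, so it had to differ. The log2 fold change of CXCL16 was −1.11 ± 0.11, with an edgeR adjusted p of 2.68e-07. The exons of CXCL16 overlap those of MED11, a gene on the opposite strand, and the use of strand in counting is not given in the sources used here. MED11 rose, from 7.23 ± 0.321 to 8.97 ± 0.395 CPM.

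**Figure D2:**
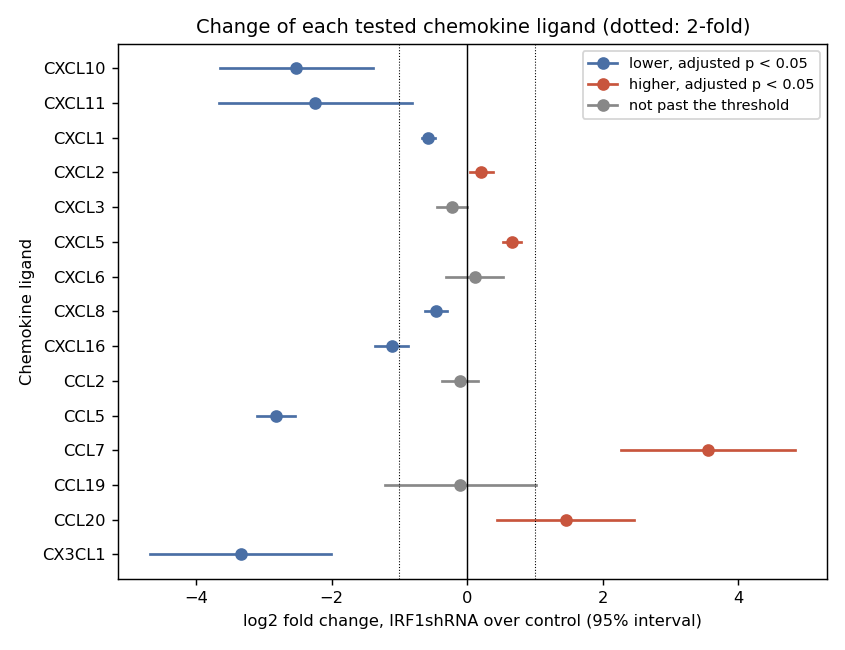
Log2 fold change of each tested chemokine ligand in IRF1shRNA over control cells, with its 95% interval from edgeR's quasi-likelihood fit. Dotted lines mark a 2-fold change in either direction. CCL5, CX3CL1, CXCL10, CXCL11 and CXCL16 lie below the lower line, CCL7 and CCL20 above the upper one, and the CXCL1 to CXCL8 family lies between the lines.

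The ELR CXC ligands CXCL1, CXCL2, CXCL3, CXCL5, CXCL6 and CXCL8 attract neutrophils through CXCR2, and CXCL6 and CXCL8 also through CXCR1. They carry a glutamate-leucine-arginine motif before the CXC cysteines. All 6 were tested, and together they held most of the chemokine transcripts of this line, with summed levels of 247.9 to 274 CPM in control libraries and 246 to 259.8 CPM after silencing. Within this family, 2 ligands fell, 2 rose and 2 did not pass the threshold, and none changed over 2-fold.

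CXCL1 (GROα) was at 161, 162 and 154 CPM in control and at 110.2, 105 and 105 CPM in IRF1shRNA libraries. It fell to 67.3% of control with narrow ranges in both groups, with a log2 fold change of −0.57 ± 0.04 (SE) and an edgeR adjusted p of 5.14e-09. CXCL8 (IL-8) was at 18.6, 18.5 and 16.8 CPM in control and at 13, 14.5 and 11.9 CPM in IRF1shRNA libraries. It fell by 0.46 ± 0.08 on the log2 scale, with an edgeR adjusted p of 9.30e-05. CXCL5 (ENA-78) moved the other way. It was at 77.4, 77.3 and 63.3 CPM in control and at 119.5, 110.7 and 113 CPM in IRF1shRNA libraries, or 158% of control. The log2 fold change of CXCL5 was 0.66 ± 0.06, with an edgeR adjusted p of 1.35e-07.

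The changes of CXCL2, CXCL3 and CXCL6 were smaller. CXCL2 (GROβ) was at 11.3, 12.3 and 10.1 CPM in control and at 13.4, 12.0 and 13.4 CPM in IRF1shRNA libraries, so the groups overlapped. The fit gave it a log2 fold change of 0.21 ± 0.08 (SE; edgeR adjusted p 0.0396). The CXCL2 call was lost in 4 of the 6 fits that left out one library, with a log2 fold change of 0.14 and an edgeR adjusted p of 0.177 without control replicate 3. The other 3 losses were without control replicate 1 (0.0721), IRF1shRNA replicate 1 (0.131) and IRF1shRNA replicate 3 (0.133), given as adjusted p-values of that edgeR test. CXCL3 (GROγ) was at 3.76, 3.53 and 3.55 CPM in control libraries and at 2.92, 2.88 and 3.40 CPM in those with IRF1shRNA. All of the latter were below the controls, but CXCL3 did not pass the threshold, with a 95% interval of −0.44 to −0.0092 and an edgeR adjusted p of 0.0782. CXCL3 did pass it without IRF1shRNA replicate 3, at −0.32 and an edgeR adjusted p of 0.0343. CXCL6 (GCP-2) was at 0.795, 0.620 and 0.684 CPM in control libraries and at 0.714, 0.721 and 0.814 CPM after silencing, so the groups overlapped, with a 95% interval of −0.31 to 0.53 on the log2 scale.

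The ratio of 2 ligands within a library does not depend on the scaling between libraries. The count of CXCL5 relative to CXCL1 was 0.481, 0.477 and 0.412 in control and 1.09, 1.05 and 1.08 in IRF1shRNA libraries, so CXCL5 counts reached those of CXCL1 after silencing. The ratio of CXCL2 to CXCL1 was 0.0708 ± 0.00501 in control and 0.121 ± 0.00659 in IRF1shRNA cells (SD, n = 3 each). The groups did not overlap in either ratio, and the exact two-sided permutation p was 0.10 for each, the smallest that 3 against 3 libraries allow (0.125 after Benjamini-Hochberg adjustment over 5 such comparisons). For CXCL3 to CXCL1 the ratio was 0.0228 ± 0.000836 in control and 0.0287 ± 0.00309 in IRF1shRNA cells, also without overlap (exact permutation p = 0.10). The ratio of CXCL8 to CXCL1 overlapped between the groups (exact permutation p = 0.30). All of these ratios have CXCL1 as denominator, which itself fell, so they are not independent of its fall or of each other.

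**Figure D3:**
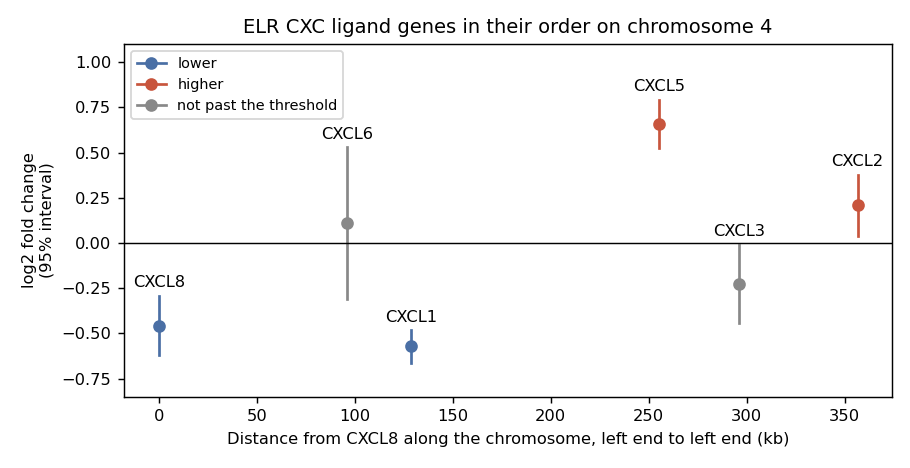
Log2 fold change, with its 95% interval, of the 6 ELR CXC ligands against the distance of each gene from CXCL8 along chromosome 4, in kb. CXCL8 and CXCL1 fell, CXCL5 and CXCL2 rose, and CXCL6 and CXCL3 did not pass the threshold, so genes with opposite changes lie within 357 kb of each other.

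These 6 genes lie in one cluster on chromosome 4, in the order CXCL8, CXCL6, CXCL1, CXCL5, CXCL3 and CXCL2, from 73740506 to 74099293 (GENCODE release 29, GRCh38). CXCL1 and CXCL5 are neighbours among them. RefSeq promoter windows, from 250 bases before to 50 bases after a start site (GRCh38.p14), were found for 30 of the 43 ligand genes. CCL5, CX3CL1, CXCL16 and CCL2 had no window and were not searched, as was the case for 9 ligands that were not tested. A core of the κB element, spelled GGAANTTCC and searched on both strands, was present in all 6 ELR CXC promoters, and in those of CXCL10, CXCL11 and CCL1. Of all 35116 promoter windows, 0.965% held it. The sequences around the match are nearly the same in CXCL1, CXCL2 and CXCL3, and in CXCL5 and CXCL6. The 6 ELR matches are therefore not independent of each other, and the spelling was chosen from known κB elements. Other spellings of the κB element were not searched, so a window without a match may still hold such an element. The matches are shown because the ELR ligands share them while their transcripts moved in different directions. Each sequence reads 5′ to 3′ on the gene's strand, with the match in capitals, and the 4 neutrophil ligands with a called change come first.

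CXCL1, 78 bases before the start, chr4:73869300-73869338, plus strand: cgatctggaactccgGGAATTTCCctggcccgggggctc
CXCL8, 91 bases before the start, chr4:73740463-73740501, plus strand: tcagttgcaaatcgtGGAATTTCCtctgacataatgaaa
CXCL5, 90 bases before the start, chr4:73998744-73998782, minus strand: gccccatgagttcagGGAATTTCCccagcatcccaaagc
CXCL2, 77 bases before the start, chr4:74099249-74099287, minus strand: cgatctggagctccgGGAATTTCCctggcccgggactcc
CXCL3, 78 bases before the start, chr4:74038744-74038782, minus strand: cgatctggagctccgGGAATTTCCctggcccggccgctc
CXCL6, 89 bases before the start, chr4:73836574-73836612, plus strand: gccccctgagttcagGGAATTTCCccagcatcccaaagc
CXCL10, 176 bases before the start, chr4:76023650-76023688, minus strand: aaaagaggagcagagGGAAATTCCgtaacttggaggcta
CXCL11, 75 bases before the start, chr4:76036122-76036160, minus strand: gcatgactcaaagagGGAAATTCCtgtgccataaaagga

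The 6 ELR promoters held GGAATTTCC on the gene's strand. CXCL10 and CXCL11 held GGAAATTCC, which is the same site in the opposite orientation. An IRF element spelled GAAANNGAAA was likewise searched on both strands. It was found in 2 of the 35 ligand windows, those of CXCL10 and CXCL9, beside 3.57% of all windows. A GAS element (gamma-activated sequence), spelled TTCNNNGAA, was found in 8 ligand windows, those of CCL7, CCL8, CCL13, CCL15, CCL24, CXCL5, CXCL6 and CXCL11, beside 7.66% of all windows, and it overlapped the κB match in CXCL5 and CXCL6. Both matches are shown because the motif is of the kind that IRF1 binds. They were picked after the fall of CXCL10 was known, and binding of IRF1 to them was not tested.

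CXCL10, 221 bases before the start, chr4:76023694-76023733, minus strand: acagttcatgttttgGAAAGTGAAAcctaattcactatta
CXCL9, 171 bases before the start, chr4:76007656-76007695, minus strand: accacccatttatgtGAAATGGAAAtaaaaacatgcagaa

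CXCL1, CXCL2 and CXCL3 are close paralogs. In GENCODE transcripts, 5.73% of the 50-base words of CXCL1, 9.24% of those of CXCL2 and 3.02% of those of CXCL3 also occurred in another ligand, so a small part of their reads could have been assigned to the wrong gene or dropped. CXCL5, CXCL6 and CXCL8 shared no such word with another ligand.

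The monocyte attractants CCL2 and CCL7 lie side by side on chromosome 17 and both act on CCR2. CCL2 (MCP-1) was at 3.02, 2.74 and 2.54 CPM in control and at 3.0, 2.29 and 2.35 CPM in IRF1shRNA libraries. The groups overlapped, with a 95% interval of −0.38 to 0.16 on the log2 scale and an edgeR adjusted p of 0.505. CCL7 (MCP-3) had 0, 4 and 4 counts in control and 30, 10 and 50 counts in IRF1shRNA libraries. It rose from a level near the limit of 3 counts, with a log2 fold change of 3.56 ± 0.61 (SE) and an edgeR adjusted p of 9.28e-05. The size of this change is uncertain because of the low control counts, and the log2 fold change ranged from 3.03 to 4.01 when single libraries were left out.

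CCL20, which attracts CCR6-expressing lymphocytes and dendritic cells, had 6, 9 and 7 counts in control and 21, 9 and 23 counts in IRF1shRNA libraries. The 9 counts of the shallow IRF1shRNA replicate 2 correspond to 0.162 CPM, between the other IRF1shRNA libraries at 0.167 and 0.140 CPM, while controls were at 0.0469 to 0.0734 CPM. CCL20 rose by 1.45 ± 0.48 on the log2 scale (SE; edgeR adjusted p 0.0179). The call was lost without control replicate 1 (adjusted p 0.0635), control replicate 3 (0.0723) or IRF1shRNA replicate 1 (0.0693) in the edgeR test. CCL19, a ligand of CCR7 in lymphoid tissue, had 9, 8 and 14 counts in control and 10, 2 and 14 counts in IRF1shRNA libraries. Its 95% interval of −1.22 to 1.01 on the log2 scale holds 2-fold changes in both directions, so a change of that size was not detectable at this depth.

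The balance of the ligands was compared per length, as CPM per kb of exon. CXCL1 was at 122.6 CPM per kb in control cells, CXCL5 at 28.6, CCL5 at 8.98, CXCL8 at 7.89 and CXCL2 at 7.50. In IRF1shRNA cells the order was CXCL1 (82.4 CPM per kb), CXCL5 (45.1), CXCL2 (8.63), CXCL8 (5.78) and CXCL3 (1.38), and CCL5 was at 1.23. The share of CXCL1 in the summed level was 67.8 ± 0.449% in control and 55.9 ± 0.340% in IRF1shRNA cells (SD, n = 3 each). The share of CXCL5 was 15.8 ± 1.24% and 30.6 ± 0.303%, and that of CCL5 was 4.99 ± 1.05% and 0.834 ± 0.168%. The shares of CXCL5 and CCL5 thus changed in opposite directions in each IRF1shRNA library relative to all controls. The summed level of the 15 ligands was 184, 186 and 174 CPM per kb in control and 152, 144 and 146 CPM per kb in IRF1shRNA libraries, without overlap (exact permutation p = 0.10, the smallest possible).

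**Figure D4:**
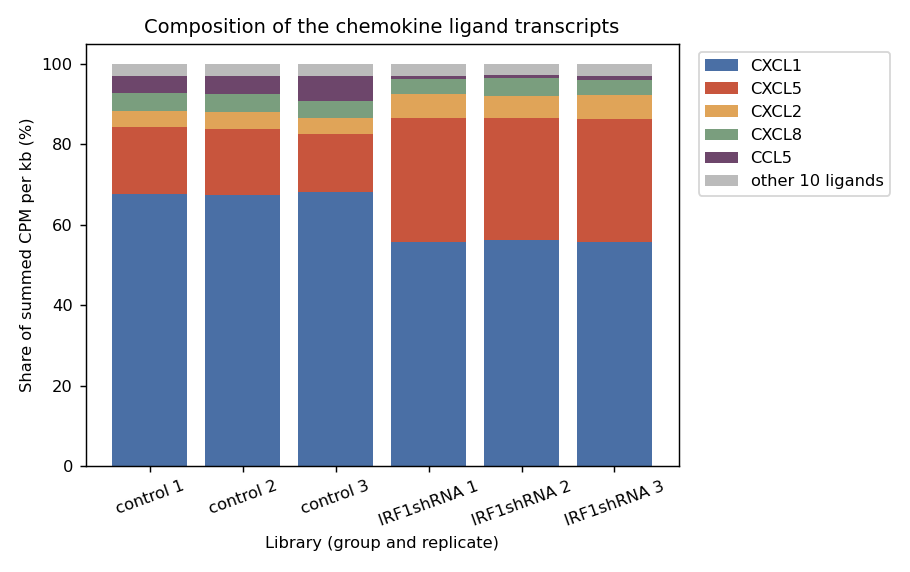
Share of each ligand in the summed CPM per kb of the 15 tested chemokine ligands (%), for each control and IRF1shRNA library. CXCL5 (red) takes 14.4% to 16.6% in control and 30.3% to 30.9% in IRF1shRNA libraries, and CCL5 (purple) 4.28% to 6.19% and 0.695% to 1.02%.

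Genes that bind, induce or accompany these ligands were examined in the same fit. Of 23 chemokine receptor genes, 6 were tested, of which 3 fell and none rose, beside 26.4% and 24.1% of all genes tested. ACKR3 (CXCR7), an atypical receptor that takes up CXCL11 and CXCL12, was at 17.7, 17.6 and 19.8 CPM in control and at 8.56, 7.95 and 9.25 CPM in IRF1shRNA libraries, with a log2 fold change of −1.09 ± 0.08 (SE). CXCR4 was scarcer, at 0.456 ± 0.103 CPM and 0.139 ± 0.0104 CPM, with a log2 fold change of −1.71 ± 0.33. CCR4, a receptor for CCL17 and CCL22, had 27, 16 and 40 counts in control and 11, 0 and 8 counts in IRF1shRNA libraries (−1.94 ± 0.56). The largest adjusted p of these 3 receptors in the edgeR test was 0.00816, for CCR4. CXCR2 and CXCR3, the signaling receptors of the ELR ligands and of CXCL10 and CXCL11, had at most 4 and 13 counts per library and were not tested. PF4, a platelet chemokine whose name lies outside the rule, had 4 to 16 counts per library and did not pass the threshold (−0.63 ± 0.53).

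Of 16 transcription regulators of chemokine genes, 10 fell and 3 rose, beside 26.4% and 24.1% of all genes tested. Genes of the IFN pathway were among those that fell. IRF7 had a log2 fold change of −1.45 ± 0.10 (SE), IRF9 of −1.43 ± 0.12 and STAT2 of −1.01 ± 0.06. The genes that rose encode NF-κB subunits, REL at 0.26 ± 0.06, NFKB1 at 0.17 ± 0.04 and NFKB2 at 0.11 ± 0.04, whereas RELA, another subunit and named like RELB after its values were seen, fell by 0.21 ± 0.04 on the log2 scale. RELB, a further subunit, did not pass the threshold (0.029 ± 0.062). FOSL1 (−0.70), JUN (−0.40) and CEBPB (−0.34), named after their values were seen, also fell, by log2 fold change. FOS did not pass the threshold (0.11). With no scaling beyond library size, the median log2 fold change over all genes was 0.049, and NFKB2 was at 0.16 there. REL, NFKB1 and NFKB2 stayed higher and RELA lower, all past the threshold, under each of the 3 other scalings. NFKBIZ, counted among the genes that fell and named after its values were seen, lost its call under each of these scalings.

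Of 14 cytokine genes that can induce chemokines, 6 were tested, with 2 lower and 2 higher, which is near the 26.4% and 24.1% of all genes tested. IL6 was at 11.5 ± 0.690 CPM in control cells and 4.87 ± 0.302 CPM after silencing (SD, n = 3 each), a log2 fold change of −1.24 ± 0.08 (SE). TNFSF10 (TRAIL) had 36, 45 and 113 counts in control and 8, 2 and 9 counts in IRF1shRNA libraries, and it passed the filter through the control libraries alone, so it had to differ (−3.11 ± 0.47). IL32 had a log2 fold change of 1.47 ± 0.20 and TNFSF13B (BAFF) of 1.15 ± 0.30. The largest adjusted p of these 4 genes in the edgeR test was 0.00398, for TNFSF13B. TNF had at most 2 counts per library and IFNG had none. IFNB1, named after its values were seen, had 18, 10 and 8 counts in control and 4, 2 and 6 counts in IRF1shRNA libraries. It did not pass the filter, so its difference was not tested.

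Chemokines are also made by leukocytes and endothelial cells, so markers of these cells were examined. CD3D, MS4A1 and TYROBP, which mark T cells, B cells and myeloid and NK cells, had 0 counts in every library. The leukocyte antigen PTPRC (CD45) had 42 to 80 counts and the myeloid integrin ITGAM 15 to 24 counts per library, and neither passed the threshold. CD8A had 0 counts in all controls and 6, 0 and 6 counts in IRF1shRNA libraries, and CD3E and LYZ had at most 8 counts in any library. Of the 10 leukocyte markers, 3 were tested, and CD14 alone rose, from 1.09 ± 0.135 to 2.22 ± 0.189 CPM (log2 fold change 1.0 ± 0.14, SE). The summed leukocyte markers ranged from 1.71 to 1.94 CPM in control libraries and from 2.65 to 3.53 CPM after silencing, and the part of these markers in the ligand results was not tested. The 3 endothelial markers summed to 0.0671 to 0.253 CPM in control libraries and 0.127 to 0.176 CPM after silencing.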

How the data were processed

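For 6 libraries (TruSeq Stranded mRNA) the deposited values are raw counts, 1 row per gene symbol, which the authors left unnormalized. The submitters' processing notes name CASAVA 1.8.2, STAR 2.7.9a, featureCounts, DESeq2 1.24.0 and GRCh38.p7. The annotation release, the strand setting and the handling of reads with several matches are not given in the sources used here. Between 72.1% and 75.2% of counts from 2 to 11 were even, so mates of a pair appear to have been counted separately, and low counts stand for about that many reads, not fragments.

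Counts were tested across all genes with edgeR 4.0.16 (R 4.3.3), by glmQLFTest with group as the only factor, TMM scaling, filterByExpr (minimum count 10) and p-values adjusted by Benjamini-Hochberg across the 18851 genes tested. The SE is the log2 fold change divided by the square root of F. The test was checked on simulated data, with equal variability for all genes, few changed genes and no mates counted separately. That check does not cover data that depart from these settings, as the present counts appear to. DESeq2 1.42.0 was an alternative, beside other scalings, filters, halved counts, left-out libraries and a replicate block. Limits of 3 counts cover counting error only, and they are too low where mates were counted separately. Replicates are triplicate cultures by the study's methods, while the labels give replicate numbers alone. Their counts differed by more than sampling noise (chi-square per degree of freedom 6.13 to 15.2 on halved counts). Deviations of same-numbered libraries correlated at −0.0543, 0.0435 and 0.0731.

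All ligands were accounted for. Those tested are named with values, and of the other lists up to 4 genes per direction with the largest change, with ACKR3 and CXCR4. An item that this rule would name is not reported here. The members and lists were chosen with earlier results of these data known. Gene lengths (summed exons) and positions came from GENCODE release 29, matched by symbol, and promoter sequences from RefSeq (GRCh38.p14). Motifs were chosen from the known κB and IRF elements.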

Additional observations from a re-analysis of the deposited data

How the results depend on the processing

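The calls for CCL5, CXCL1, CXCL5, CXCL8 and CXCL16 held in every alternative, and those for CXCL10, CX3CL1 and CCL7 in every alternative that tested them. The latter 3 had passed the filter through their higher group alone, so their calls under that filter are no added support. With no filter, all 3 were called as well. A filter of 1 CPM in 3 or more samples left out 7 of the 15 ligands and gave 4 lower and 2 higher, with 2 lower and 0 higher past 2-fold. Halved counts left out CXCL11, CCL19, CCL20 and CX3CL1 and gave 3 lower and 1 higher past 2-fold. With no filter CCL20 was at 1.45 (adjusted p 0.0547 in the edgeR test), so 1 ligand was higher past 2-fold. An adjusted p under 0.01 left 2 higher ligands, 1 of them past 2-fold. Across the fits that left out one library, 2 to 4 ligands were higher, 1 to 2 of them past 2-fold, and CCL19, which was never called, ranged from −0.30 to 0.083, changing sign without control replicate 3 or IRF1shRNA replicate 2. With the replicate block, IRF1 was at −1.74 and the same 7 lower and 4 higher ligands were called. Deviations of same-numbered libraries correlated at −0.0543 to 0.0731, and whether such libraries shared a batch was not tested. DESeq2 also called the same 11 ligands. Ligands under 0.3 CPM rest on few reads, which limits the size given for CXCL10, CXCL11, CX3CL1, CCL7 and CCL20.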
